A study of Caenorhabditis elegans with 2 samples.

Results

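Caenorhabditis elegans large ribosomal subunit protein genes were examined for regions occupied by Y55F3AM.14, which the RefSeq annotation names znf-782 and describes as a C2H2-type zinc finger protein. The members were the protein-coding genes of RefSeq WBcel235 with a symbol of rpl- followed by a digit, 48 of 19971 nuclear protein-coding genes. The annotated product names a ribosomal protein for 47 of them, and the exception is rpl-42, which RefSeq describes as a NAM-associated domain-containing protein. The P stalk genes known elsewhere as rla-0, rla-1 and rla-2 carry the symbols rplp-0, rplp-1 and rplp-2.2 in RefSeq. They were matched by WormBase identifier and are described apart, together with rplp-2.1. Several members have other names in the Ensembl annotation, among them rpl-18A (rpl-20 there), rpl-35A (rpl-33), rpl-8 (rpl-2) and rpl-10L (rpl-10).

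ChIP-seq with an anti-GFP antibody was carried out in 2 biological replicates of 1 group, whole L2 larvae of mixed sex aged 42 h from strain OP608. Both replicates carried the unc-119(tm4063) mutation and the array wgIs608, which holds unc-119(+) and Y55F3AM.14::TY::EGFP::3xFLAG, a tagged copy beside the endogenous gene. The labels do not name the promoter of the tagged copy, and no sample of an untagged strain or another factor was analysed here. Whole animals were used, so the cell types that carry a region cannot be told apart.

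Each region has a score, the signal value of the authors' peak caller, whose scale is not stated, and a summit. The optimal list held the 1604 regions kept by an irreproducible discovery rate threshold, with scores from 110.3 to 1466. The relaxed lists, which hold background as well as peaks, had 29629 regions for both replicates pooled, 29577 for replicate 1 and 28681 for replicate 2. How deeply the libraries were sequenced is unknown. A gene was taken to have a region when a summit lay within 500 bp of an annotated start of one of its mRNAs, on either side.

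Large ribosomal subunit proteins fold around the large ribosomal RNA and form the part of the ribosome that joins amino acids and releases the growing chain through an exit tunnel. Their genes are among the most strongly transcribed in growing animals, and each protein is needed in the same amount as its partners. In C. elegans many mRNAs are trans-spliced: a short leader replaces the first part of the transcript after an acceptor that ends in AG, so that the annotated start of such a gene can lie downstream of where transcription begins.

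Of the 48 genes, 13 had an optimal region, and in each of the 13 the summit lay upstream of the start. The 151 bases around the summits at 8 of these genes show what the regions hold. They were read from the RefSeq WBcel235 genome on the strand of the gene, and capitals mark ACCGTA or its reverse complement TACGGT, the letters described further below. The windows are those of rpl-3 (chrIII:3867496-3867646, plus strand), rpl-15 (chrIV:654839-654989, minus strand), rpl-18A (chrIV:4750003-4750153, minus strand), rpl-35 (chrIII:7854615-7854765, plus strand), rpl-11.2 (chrX:2242927-2243077, minus strand), rpl-35A (chrII:7105092-7105242, plus strand), rpl-5 (chrII:8569431-8569581, plus strand) and rpl-29 (chrIV:13881850-13882000, plus strand). The first 4 are the highest-scoring member regions, and rpl-35 among them has no capitals.
rpl-3: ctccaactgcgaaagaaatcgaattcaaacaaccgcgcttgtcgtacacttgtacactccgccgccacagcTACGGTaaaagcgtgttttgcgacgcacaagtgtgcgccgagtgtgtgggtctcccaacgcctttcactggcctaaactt
rpl-15: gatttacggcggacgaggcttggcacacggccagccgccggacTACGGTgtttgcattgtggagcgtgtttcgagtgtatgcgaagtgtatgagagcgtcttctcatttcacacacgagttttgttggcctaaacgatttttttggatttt
rpl-18A: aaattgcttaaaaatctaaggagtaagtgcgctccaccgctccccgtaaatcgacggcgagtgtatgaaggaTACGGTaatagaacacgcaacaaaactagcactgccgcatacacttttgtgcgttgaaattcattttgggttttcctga
rpl-35: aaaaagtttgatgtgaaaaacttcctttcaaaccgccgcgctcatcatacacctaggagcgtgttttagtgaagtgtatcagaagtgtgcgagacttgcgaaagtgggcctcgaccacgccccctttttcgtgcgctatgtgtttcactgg
rpl-11.2: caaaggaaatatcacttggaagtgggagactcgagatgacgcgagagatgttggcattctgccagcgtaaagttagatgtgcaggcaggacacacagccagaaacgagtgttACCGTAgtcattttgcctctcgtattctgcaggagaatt
rpl-35A: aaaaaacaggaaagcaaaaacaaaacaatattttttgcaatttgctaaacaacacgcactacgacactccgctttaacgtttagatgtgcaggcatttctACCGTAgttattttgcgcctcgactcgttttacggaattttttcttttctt
rpl-5: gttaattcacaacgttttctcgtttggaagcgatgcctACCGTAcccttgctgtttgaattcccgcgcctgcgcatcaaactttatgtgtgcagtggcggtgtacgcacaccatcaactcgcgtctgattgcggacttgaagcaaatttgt
rpl-29: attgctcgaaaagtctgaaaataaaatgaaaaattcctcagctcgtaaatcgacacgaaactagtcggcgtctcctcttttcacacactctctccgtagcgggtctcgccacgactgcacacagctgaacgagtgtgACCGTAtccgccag

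Optimal regions were present at 13 of the 48 genes, 27.1% with a 95% exact binomial interval of 15.3 to 41.8%, against 3.40% of all protein-coding genes. Intervals cover counting error over genes and not the spread between animals. When the 100 highest-scoring optimal regions alone were used, 5 members (10.4%, interval 3.47 to 22.7%) had one, against 0.240% of all genes. With the 802 highest-scoring optimal regions the count was 8 (16.7%, interval 7.48 to 30.2%), against 1.80%. The members had optimal regions more often than the background at each of these depths of the list at a distance of 500 bp, which was described and not tested, because the genes were chosen with earlier results of these data known.

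The replicates gave like counts when each was read alone. Among the 1604 highest-scoring regions of replicate 1, 13 members (27.1%) had a region, against 3.29% of all genes, and in replicate 2 it was 12 members (25%, interval 13.6 to 39.6%), against 3.37%. Where a region was given only to the gene with the nearest start, 9 members (18.8%, interval 8.95 to 32.6%) had an optimal region, against 2.87%. The pooled relaxed list had a region at 36 members (75%, interval 60.4 to 86.4%), against 33.0% of all genes. In the relaxed list of replicate 1 the count was 36, against a background of 32.8%, and in that of replicate 2 it was 34 (70.8%, interval 55.9 to 83.0%), against 32.1%. The distance allowed mattered: within 250 bp of a start, 2 members (4.17%, interval 0.509 to 14.3%) had an optimal region, against 2.04% of all genes, and 12 (25%, interval 13.6 to 39.6%) had a pooled region, against 20.8%. Both of these intervals contain the background share.

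**Figure D1:**
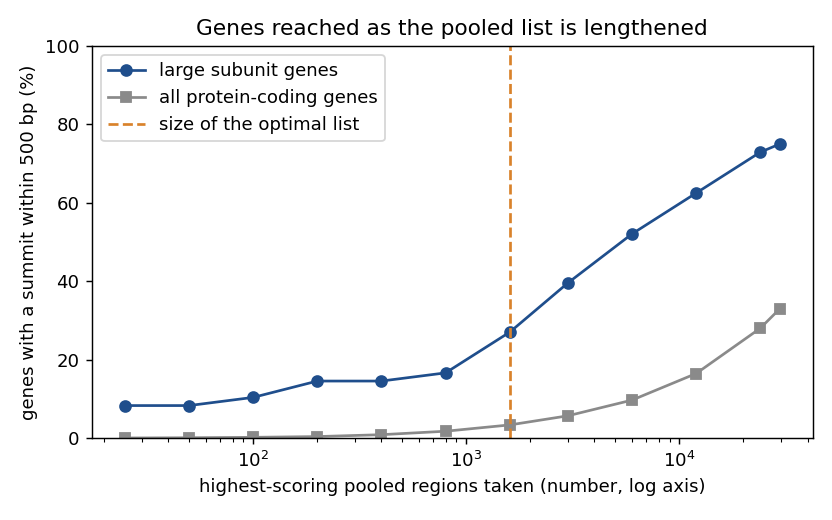
Percent of genes reached (vertical axis) as the pooled list is lengthened from its highest-scoring regions (horizontal axis, number of regions, log scale), for the 48 large subunit genes and for all protein-coding genes. The 25 highest-scoring regions reached 4 members (8.33%) and 0.0701% of all genes, and the first 3000 reached 19 members (39.6%) and 5.72%.

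As the plot of genes reached by list length shows, members were already reached by the highest-scoring regions. The highest 25 pooled regions reached 4 members and the highest 200 reached 7 (14.6%, against 0.431% of all genes). Between 200 and 800 regions 1 further member was reached. The first 6000 regions reached 25 members (52.1%, against 9.72%) and the first 12000 reached 30 (62.5%, against 16.5%).

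The highest-scoring member region was at rpl-3, whose product lies close to the peptidyl transferase centre. The region (chrIII:3867416-3867717) ranked 3 of the 1604 with a score of 1052, with 561.8 in replicate 1 and 492.7 in replicate 2, and its summit lay 283 bp upstream of the start. It ranked 3 in replicate 1 and 4 in replicate 2, and no other protein-coding gene had a start within 500 bp. At rpl-35, whose product sits at the mouth of the exit tunnel, the region (chrIII:7854573-7854828) scored 633.7, with 338.2 in replicate 1 and 293.8 in replicate 2, at 444 bp upstream. It too had no other protein-coding start within 500 bp, and a second pooled region downstream of the rpl-35 start scored 52.2.

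Both rpl-15 and rpl-18A had regions of about the same height. The rpl-15 region (chrIV:654802-655054) scored 762.0, with 380.9 in replicate 1 and 380.2 in replicate 2, at 338 bp upstream of the start. The rpl-18A region (chrIV:4749949-4750213) scored 752.0, with 387.1 and 363.6 in replicates 1 and 2, at 300 bp upstream. Each of these regions also counted for a second gene: K11H12.8, annotated as a growth hormone-inducible transmembrane protein, at 476 bp from the rpl-15 summit, and Y17G9B.5, annotated as a mitochondrial signalling intermediate, whose start was nearer to the other summit, at 162 bp, than that of rpl-18A.

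A further pair of regions lay close to the start. At rpl-12, whose product forms the base of the stalk where translation factors dock, the region (chrIV:13240609-13240755) scored 441.4, with 241.8 in replicate 1 and 199.2 in replicate 2, and the summit was 17 bp upstream. The start of lin-54, which encodes a DNA-binding subunit of the DREAM complex, lay 376 bp from the same summit. At rpl-7A, which encodes a member of a family of proteins that bind kink-turns in RNA, the region (chrIV:4390565-4390728) scored 342.5, with 199.2 and 144.4 in replicates 1 and 2, at 67 bp upstream. It was shared with set-21, a gene for a SET domain protein, at 187 bp, and a small nucleolar RNA gene lay within 500 bp. Of the 120 stretches of 32 bases around the rpl-7A summit, 107 (89.2%) occur once in the genome, while the windows of the other 12 members were single-copy throughout.

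The genes for the proteins that hold the smallest RNA of the subunit, rpl-11.2 and rpl-5, had regions of unequal height. The rpl-11.2 region (chrX:2242790-2243213) scored 314.9, with 192.3 in replicate 1 and 121.7 in replicate 2, at 384 bp upstream. Its ranks were 101 in replicate 1 and 226 in replicate 2. The rpl-5 region (chrII:8569294-8569717) scored 118.7, with 67.2 and 50.01, at 421 bp upstream. The rpl-5 summit lay inside annotated non-coding genes and was 418 bp from the start of the collagen gene col-38, which was nearer than that of rpl-5.

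The remaining 5 regions had scores from 188.3 down to 110.7, below that of rpl-11.2, and the rpl-5 score of 118.7 lay within this range. At rpl-41.2, for a very short basic protein at the joint between the subunits, the region (chrI:4789825-4790248) scored 188.3, with 99.4 and 99.6 in replicates 1 and 2, at 255 bp upstream. The rpl-14 region (chrI:9688686-9689109) scored 138.0, with 57.8 in replicate 1 and 78.7 in replicate 2, at 299 bp upstream. Those of rpl-41.2 and rpl-14 were the regions in which replicate 2 was the higher, and at rpl-41.2 the scores were nearly equal.

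At rpl-22, for an RNA-binding protein on the outer surface of the subunit, the region scored 127.4, with 82.4 in replicate 1 and 45.0 in replicate 2, at 256 bp upstream. Among the 12 regions in both replicate lists the replicates differed most here, with a ratio of replicate 1 to replicate 2 of 1.83, and the securin-like gene ify-1 had the nearer start, at 181 bp. The rpl-35A region (chrII:7104955-7105378) scored 125.7, with 68.3 and 56.6, at 396 bp upstream, and farl-11 had the nearer start, at 132 bp. Human RPL35A, like RPL5 and RPL11, is mutated in Diamond-Blackfan anaemia. The rpl-29 region (chrIV:13881713-13882136) was the lowest, with a score of 110.7 and 78.7 in replicate 1. Replicate 2 had no summit within 100 bp of the rpl-29 summit, the nearest being 163 bp away, so that the value stands on replicate 1 and the pooled list.

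**Figure D2:**
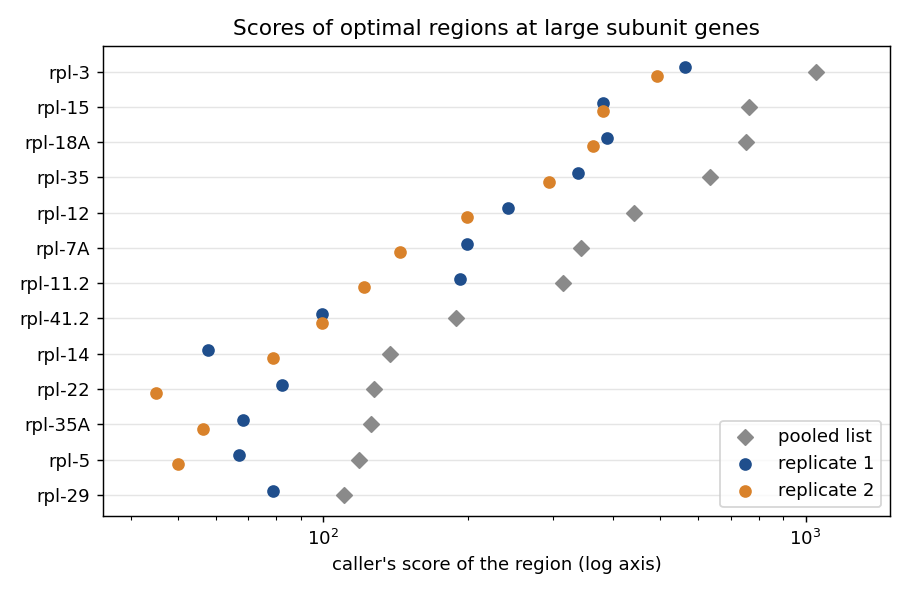
Score of each optimal region at a large subunit gene (horizontal axis, the authors' score on a log scale) in the pooled list and in each replicate, with the genes ordered by pooled score. The pooled scores fall from 1052 at rpl-3 to 110.7 at rpl-29, where replicate 2 has no point.

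As the plot of scores by gene shows, replicate 1 was higher at 10 of the 12 regions found in both replicate lists and replicate 2 at 2. The ratio of replicate 1 to replicate 2 had a median of 1.18 over the 12 (0.735 to 1.83), and the median over 1517 optimal regions found in both lists was 1.20, close to that of the members. Of the 13 regions, 9 were among the 1604 highest of both replicate lists. The median score of the member regions was 314.9 (quartiles 127.4 and 633.7), against 151.0 for the 560 optimal regions near a start of other genes. The −log10 q value given by the caller was 2.78 for the first 7 regions, the highest value in the list, which 305 optimal regions shared, and fell to 1.64 at rpl-29. The lowest score in the optimal list was 110.3, and rpl-29 at 110.7 stood just inside that limit and rpl-23 at 109.4 just outside.

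**Figure D3:**
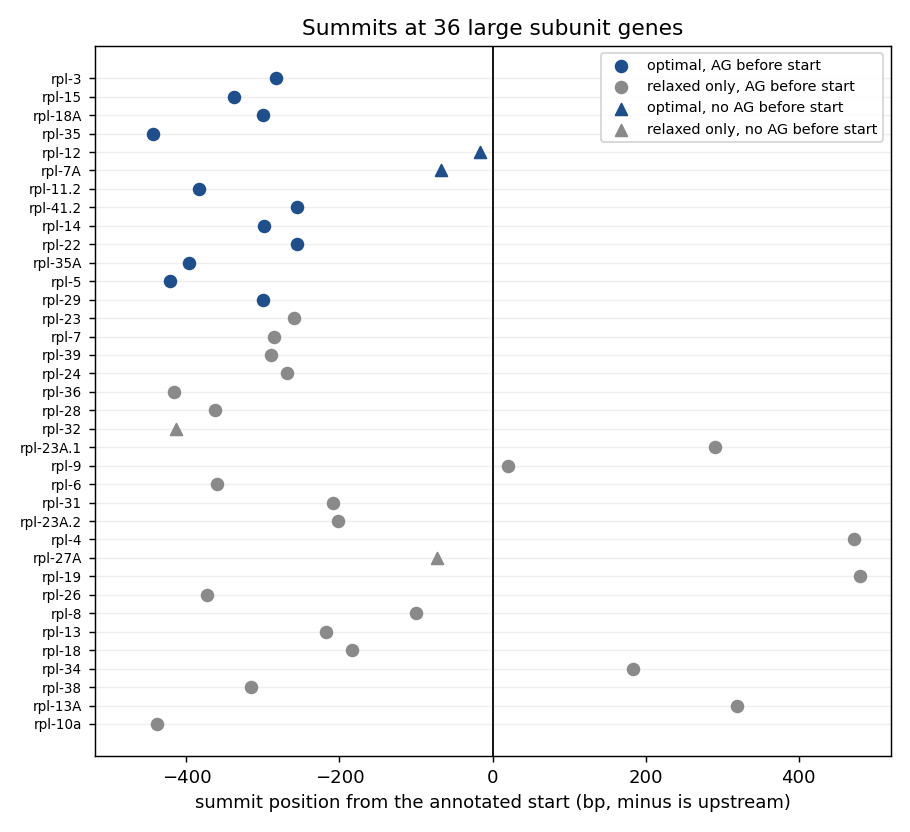
Distance of the summit from the nearest annotated start (horizontal axis, bp, minus is upstream) for 36 members ordered by score from top to bottom (vertical axis), with optimal regions in blue, the best region of members with a relaxed region only in grey, circles where AG precedes the start and triangles where it does not. The 13 optimal summits lie between 444 and 17 bp upstream, and 6 of the 23 grey points lie downstream.

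The median summit at the members lay farther upstream than that over all other genes with an optimal region, as did those at small subunit genes (-292 bp, 9 genes) and translation factor genes (-304.5 bp, 8 genes). The median position was -300 bp (quartiles -384 and -256) over 13 members, and -184 bp (quartiles -300 and -65) over the other 667 genes. An upstream summit was found at 13 of 13 members and at 567 of the 667 genes (85.0%). The letters directly before the start were then read, a comparison chosen after the positions had been seen. The sequence ended in AG at 11 of the 13, which had summits from -444 to -255 bp, and did not at rpl-12 and rpl-7A, whose summits were at -17 and -67 bp. Over other genes the medians were -241 bp with AG (293 genes) and -129.5 bp without (374 genes). The 20 bases before the start of a gene of each kind are shown, with AG in capitals, from chrIII:3867834-3867853 for rpl-3, chrIV:654577-654596 for rpl-15, chrIV:13240652-13240671 for rpl-12 and chrIV:4390591-4390610 for rpl-7A.
rpl-3: gtaaaattaatatttttcAG
rpl-15: tctaaccttttttctttcAG
rpl-12: agcgacgcaacaaccattgt
rpl-7A: taaaaatcgtcgctcatttt

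The same letters were common among the members in general. AG preceded the outermost start at 42 of 48 members (87.5%), against 5997 genes (30.0%) of all, and TTTCAG at 26 (54.2%), against 2688 (13.5%). AG was not particular to the members. It preceded the start at 29 of 30 small subunit genes (96.7%), 4 of 4 P stalk genes and 34 of 42 mitochondrial large subunit genes (81.0%). For ribosome biogenesis genes it was 16 of 20 (80%), and for translation factor genes 26 of 39 (66.7%). The members without AG were rpl-7A, rpl-12, rpl-32, rpl-37A, rpl-41.1 and rpl-42. Among the members with a relaxed region only, too few lacked AG to tell whether summits lay farther upstream with it. The median position over these members was -218 bp with AG (21 genes) and -243.5 bp without (2 genes). Of these, rpl-32, without AG, had its best region at -414 bp, and the 6 best summits downstream of the start were at genes with AG. At rpl-27A, which has 2 annotated starts, the best region lay at -73 bp from the inner one, which AG does not precede. AG is a description of the letters and does not show that a transcript is trans-spliced.

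Letters were searched in the 151-base summit windows on both strands. GACGC was in 8 of 13 member windows (61.5%, interval 31.6 to 86.1%), against 35.2% of the 560 windows at other genes. The interval contains that share. GACGC was also in 31.4% of all optimal windows and 13.7% of weaker windows, those of 27586 pooled regions that overlap no optimal region. At small subunit genes it was in 1 of 9 optimal windows (11.1%), and at translation factor genes in 1 of 8 (12.5%). GAGAGA was in 3 member windows (23.1%, interval 5.04 to 53.8%), against 28.4% at other genes and 34.5% of all optimal windows, and the interval contains both. TATAAA was in 0 of 13 (exact interval up to 24.7%), against 6.61% of all optimal windows and 10.9% of weaker ones.

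ACCGTA was picked after the windows had been read, as a 6-mer held by 9 of the 13 (69.2%), a count it shares with AAAAAT. The latter is common everywhere, in 30.6% of all optimal and 44.1% of weaker windows, whereas ACCGTA was in 47 of 560 windows at other genes (8.39%), in 82 of 1604 optimal windows (5.11%) and in 4.53% of weaker windows. It was also in 4 of 8 optimal windows at translation factor genes (50%) and 3 of 9 at small subunit genes (33.3%), so that it was not confined to the members. The 4 members without it were rpl-35, rpl-12, rpl-7A and rpl-41.2. It lay on the opposite strand to the gene at rpl-3, rpl-15 and rpl-18A, 1 bp upstream of the summit, 29 bp upstream and at the summit itself, and on the gene's strand at the other 6, from 34 bp upstream to 65 bp downstream of the summit. Since the letters were chosen on these windows, their share there is a description. The windows of rpl-11.2 and rpl-35A also share a string of 15 bases that lies apart from it.
rpl-11.2 and rpl-35A: ttagatgtgcaggca

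The 35 members with no optimal region took no part in the choice of ACCGTA. Within the 500 bp upstream of the start, 17 of these 35 (48.6%) held it on either strand, against 14% of all protein-coding genes (2789). Over all 48 members the count was 26 (54.2%), and 12 of 30 small subunit genes (40%), 8 of 39 translation factor genes (20.5%), 7 of 42 mitochondrial large subunit genes (16.7%) and 2 of 20 ribosome biogenesis genes (10%) held it. The letters alone did not mark a region: of the 12 members with no pooled region, 6 held ACCGTA upstream. It was in 4 of the 26 pooled summit windows (15.4%) of members that had relaxed regions only, against 4.53% of weaker windows. These 26 windows come from 23 members and the count is small, so this share is a description.

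A pooled relaxed region without an optimal one was found at 23 members, with best scores from 38.8 to 109.4 and a median of 67.9. The best summit was upstream of the start at 17 and downstream at 6. The highest was at rpl-23, whose product lies at the face that meets the small subunit, with a pooled score of 109.4 and 56.1 and 56.7 in replicates 1 and 2, at 260 bp upstream. At rpl-7 the scores were 107.4, 71.6 and 39.7 in the same order, at 285 bp upstream. At rpl-39, for a protein that lines the exit tunnel, they were 105.9, 58.1 and 48.8 at 289 bp upstream, in a region shared with fau-1. These 3 regions stood directly below the limit of the optimal list.

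Some of the relaxed regions lay between the member and a gene of the small subunit or of the mitochondrial large subunit. At rpl-24, for a protein that bridges the subunits, the pooled score was 103.5, with 50.7 in replicate 1 and 47.4 in replicate 2, and the region was shared with rps-10. At rpl-36 the same scores were 99.9, 53.9 and 45.9, in a region shared with rps-14, which had the nearer start. At rpl-28 they were 97.5, 41.7 and 58.3, in a region shared with mrpl-49. Others among the 10 highest were rpl-32 with 85.8, 36.4 and 44.3 at 414 bp upstream, rpl-9 with 78.5, 37.9 and 37.3 in its own coding exon 20 bp downstream of the start, and rpl-6 with 71.1, 22.05 and 47.8 at 360 bp upstream.

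At 9 of the 23 members the best region had a summit within 100 bp in 1 replicate list alone. By that match, in replicate 1 alone were rpl-23A.1 (pooled score 81.3, replicate score 53.4, in its coding exon 291 bp downstream), rpl-27A (67.1 and 54.3), rpl-26 (55.5 and 35.8), rpl-34 (43.9 and 28.0), rpl-38 (42.8 and 29.3), rpl-13A (40.5 and 24.4) and rpl-10a (38.8 and 26.8). Replicate 2 also had a summit within 500 bp of a start of rpl-23A.1, rpl-27A, rpl-26 and rpl-10a. Its nearest summits lay 126, 507, 116 and 180 bp from the pooled summits of these genes, in that order. Matched in replicate 2 alone were rpl-13 (48.9 and 26.6) and rpl-18 (44.4 and 29.5). At rpl-4, rpl-8, rpl-19, rpl-23A.2 and rpl-31 the best region was matched in both replicates, although the replicate 2 summit at rpl-19 lay beyond 500 bp from the start. Weaker pooled regions lay at rpl-31 (65.7, matched in replicate 2 alone) and at rpl-4 (66.0, matched in both, and 42.4, matched in replicate 1 alone).

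No pooled region lay within 500 bp of a start at rpl-10L, rpl-11.1, rpl-17, rpl-21, rpl-27, rpl-30, rpl-36A, rpl-37.1, rpl-37.2, rpl-37A, rpl-41.1 and rpl-42, which is 12 of 48. The relaxed lists of single replicates did hold a summit within 500 bp at rpl-37A (both replicates), rpl-36A (replicate 1) and rpl-37.2 (replicate 2). The nearest pooled summits just outside the limit were 507 bp downstream of the start for rpl-37A, 528 bp downstream for rpl-30 and 533 bp upstream for rpl-27. Optimal summits lay 734 bp upstream of rpl-37A and 735 bp downstream of the rpl-27 start. Of the 4 numbered pairs of genes, 2 were unlike: rpl-11.2 had an optimal region and rpl-11.1 no pooled region, and rpl-41.2 had an optimal region while the start of rpl-41.1 was 847 bp from that same summit. The other 2 were alike in the pooled list, with a relaxed region only at rpl-23A.1 and rpl-23A.2 and no pooled region at rpl-37.1 and rpl-37.2.

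Optimal regions were found at 5 of 7 members on chromosome IV, 3 of 10 on II, 2 of 9 on III, 2 of 15 on I, 1 of 2 on X and 0 of 5 on V. The share of all genes on each chromosome was not counted, so no concentration can be read from these counts. The upstream neighbour was divergent at 32 of the 48 members, and the median distance to it was 623.5 bp (97 to 11879 bp) over all members and 612 bp over the 13. Of the optimal regions, 7 of the 13 optimal regions also lay within 500 bp of the start of another protein-coding gene, while at 9 of the 13 the member had the nearest start. A small nucleolar RNA gene lies inside 9 of the 48 members, of which rpl-15 and rpl-7A had an optimal region and rpl-4, rpl-6, rpl-7, rpl-8, rpl-24, rpl-26 and rpl-27A a relaxed region. Shares over all genes were not counted for neighbours, shared regions or small nucleolar RNA genes, so these counts are descriptions.

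The P stalk proteins recruit translation factors to the ribosome. Of their 4 genes, 0 had an optimal region, with an exact interval of up to 60.2%, against 3.40% of all genes. A pooled relaxed region was found at 2 of the 4 (50%, interval 6.76 to 93.2%), against 33.0% of all genes. Both intervals contain the share of all genes. At rplp-1 the score was 83.1, with 47.2 and 47.1 in replicates 1 and 2, at 109 bp downstream of the start, and at rplp-0 it was 43.7, with 23.3 in replicate 1 and no summit within 100 bp in replicate 2, at 217 bp upstream.

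**Figure D4:**
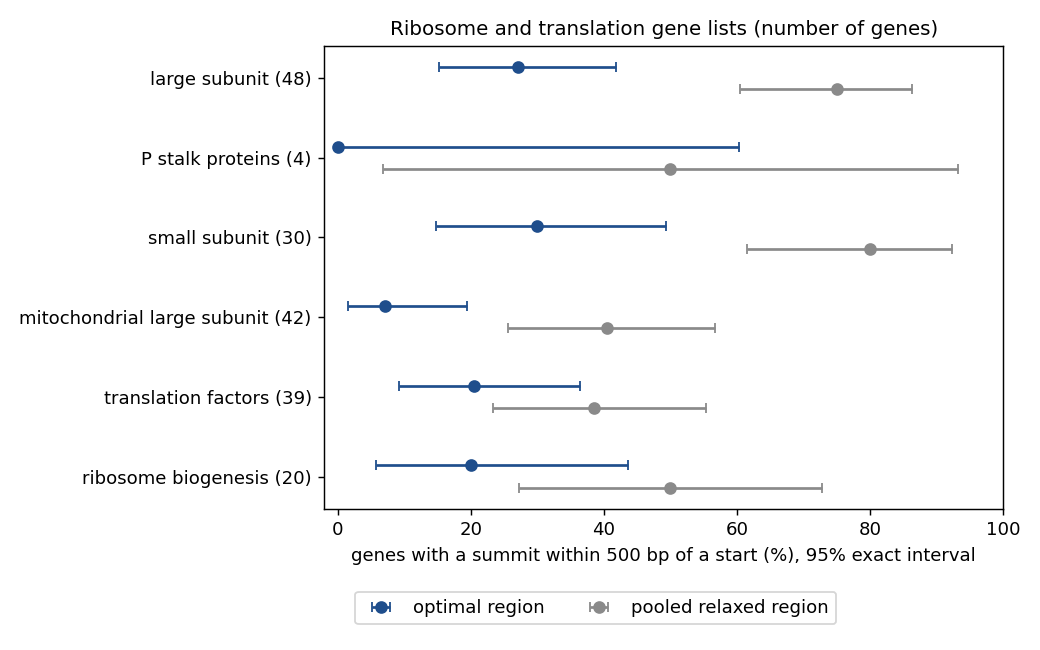
Percent of genes with a summit within 500 bp of a start (horizontal axis, with 95% exact binomial intervals) in the optimal and the pooled relaxed list, for the large subunit genes and for related gene lists with the number of genes in brackets. The large and small subunit shares lie close together (27.1% and 30.0% in the optimal list), and that of the mitochondrial large subunit is 7.14%.

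Related gene lists were set beside the members without a test, as the plot of gene lists shows. Of the small subunit genes, 9 of 30 (30.0%, interval 14.7 to 49.4%) had an optimal region, and the intervals of the subunits overlap over most of their length. Their summits were upstream at 9 of 9, with a median of -292 bp, and the highest scores were at rps-3A (423.9 pooled, 218.8 and 192.9 in replicates 1 and 2) and rps-19 (406.5, 187.7 and 218.1), both under those of the 5 highest large subunit regions. Translation factor genes had 8 of 39 (20.5%, interval 9.30 to 36.5%), led by iff-2 with 406.5 and eef-1A.2 with 298.9, and ribosome biogenesis genes had 4 of 20 (20%, interval 5.73 to 43.7%), led by pro-1 with 211.7 and rpoa-1 with 146.6. Mitochondrial large subunit genes, for the ribosome of that organelle, had 3 of 42 (7.14%, interval 1.5 to 19.5%), led by mrpl-28 with 164.9 and mrpl-53 with 135.2. The share of all genes was 3.40%, which the mitochondrial interval contains. In the pooled relaxed list the shares were 80.0% for the small subunit, 50% for biogenesis, 40.5% for the mitochondrial large subunit and 38.5% for translation factors, against 33.0% of all genes. The pooled intervals of the biogenesis, mitochondrial large subunit and translation factor genes contain that share. Differences between these lists were not tested.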

How the data were processed

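ChIP-seq regions of 2 replicates of 1 group were used as deposited. Per the README deposited with the samples, relaxed lists were made by the authors from the alignments of each replicate, or of both pooled, with 1 control, on build ce11, and the optimal list by thresholding on the irreproducible discovery rate. Chromatin had been sonicated to 200 to 800 bp, per the labels. The aligner, the caller and that threshold are not named there or in the labels. The deposited lists give a score on a scale that is not stated, a −log10 q value and a summit offset. Depth is unknown, so nothing was scaled to it, and scores of the replicates are given side by side.

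Genes, mRNA starts and sequence came from RefSeq WBcel235, which has the coordinates of ce11. A replicate was taken to hold a pooled region when its summit lay within 100 bp. Shares carry 95% Clopper-Pearson intervals. Windows of 75 bp on each side of the summit were searched for letters. Scripts (Python 3.11.15, pandas 2.3.3, SciPy 1.17.1) were tested on simulated data. No p-value was computed, since there is 1 group of 2 samples and the members and gene lists were chosen with earlier results of these data known.

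Members with an optimal region are named with values. Those with a relaxed region only are given values when among the 10 highest of that class or found in 1 replicate list, and related lists are named by their 2 highest genes. Alternatives covered the window, the starts used, the rule for shared regions, the list length, each replicate alone and the width of the summit window.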

Additional observations from a re-analysis of the deposited data

How the results depend on the processing

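The count of members with an optimal region, 13, fell to 2 (4.17%, against 2.04% of all genes) when the distance allowed from a start was 250 bp and was 8 with the upper part of the optimal list, its 802 highest-scoring regions. The count with a pooled relaxed region, 36, fell to 12 at 250 bp (25%, against 20.8%), so that little of the contrast with all genes was left. With 1000 bp the counts were 16 (33.3%, against 4.92%) and 44 (91.7%, against 48.3%). With each replicate left out in turn, the optimal count ranged from 12 to 13, the pooled count from 34 to 36 and the median position from -322 to -299 bp, the -322 coming from replicate 2 alone. The genes counted were not all the same. Of the 13 members, 12 were reached by replicate 1 alone and 10 by replicate 2 alone, and of the 36, 34 and 32 in that order. TATAAA was in 2 of 13 windows with 150 bp on each side of the summit and in 0 with 75 bp. The other alternatives, 26 of 31, moved counts by at most 1.5 times and positions by less than the spread between the replicates. No paired analysis was possible because there is 1 group.

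The limits are the small number of members, the unknown depth, the unstated scale of the score, and the absence here of an untagged or other-factor sample, so whether the same regions appear with another tagged protein was not tested. A region between divergent genes counts for both, and ACCGTA and the letters before the start were chosen after seeing the data.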
